A study of Mus musculus with 10 samples.

Results

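The insulin-like growth factor (IGF) receptors and binding proteins were described in the nucleus accumbens shell of mice, where 10 genes had been listed by symbol and 9 of them were in a table of 20483 genes. The 9 are the receptor genes Igf1r, Insr and Igf2r and the binding protein genes Igfbp2 to Igfbp7. The ligand gene Igf1 was not analysed here. The list was chosen from values in the lateral and medial shell, so the difference between these regions is given for its members as a description, without a test. The nucleus accumbens forms the ventral striatum, and the study is about how its subregions differ in the processing of reward. Tissue labelled as lateral shell (n = 5 libraries) and as medial shell (n = 5 libraries), all of genotype WT, was profiled by Geo-seq, in which small captured pieces of a tissue section give RNA for amplification. The labels call the libraries of a region biological replicates and give neither age, sex, strain nor animal, so the spread between libraries may be partly technical. The labels name the cells only as mouse neural cells, and each library is a mixture.

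IGFs are secreted peptides that act through Igf1r, a receptor tyrosine kinase, and more weakly through the closely related insulin receptor, Insr. Igf2r has no kinase activity: it takes up Igf2 for breakdown and carries lysosomal enzymes tagged with mannose 6-phosphate. The secreted binding proteins hold IGFs outside the cell and can limit or prolong their action. Igfbp6 prefers Igf2 over Igf1, and Igfbp7 is a relative that binds IGFs only weakly. Activated receptors signal through the Irs adaptor proteins to phosphoinositide 3-kinase, Akt, mTOR and the FoxO transcription factors, and in parallel through Ras and the MAP kinases.

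Igfbp5 and Igfbp6 were the members whose lateral values all lay above all medial values. The RefSeq sequence of 250 bases before the start site (GRCm38.p6) is shown for them and, for contrast, for Igfbp7, whose regions overlapped. Capitals mark matches, on either strand, to the binding motif of the Sp1 family known as the GC box, which was searched as GGGCGG. They also mark matches to the core promoter element that binds the general transcription machinery, the TATA box, searched as TATAAA. No match overlaps another.
Igfbp5, chr1:72874866-72875115, minus strand: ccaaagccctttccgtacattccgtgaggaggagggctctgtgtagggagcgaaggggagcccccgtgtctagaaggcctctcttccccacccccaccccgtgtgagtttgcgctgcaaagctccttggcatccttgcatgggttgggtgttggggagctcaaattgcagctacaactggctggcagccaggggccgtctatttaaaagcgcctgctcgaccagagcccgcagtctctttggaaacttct
Igfbp6, chr15:102143936-102144185, plus strand: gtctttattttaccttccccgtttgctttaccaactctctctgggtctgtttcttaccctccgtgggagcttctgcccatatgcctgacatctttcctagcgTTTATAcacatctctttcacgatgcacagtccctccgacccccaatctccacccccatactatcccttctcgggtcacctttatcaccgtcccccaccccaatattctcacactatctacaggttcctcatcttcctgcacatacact
Igfbp7, chr5:77408046-77408295, minus strand: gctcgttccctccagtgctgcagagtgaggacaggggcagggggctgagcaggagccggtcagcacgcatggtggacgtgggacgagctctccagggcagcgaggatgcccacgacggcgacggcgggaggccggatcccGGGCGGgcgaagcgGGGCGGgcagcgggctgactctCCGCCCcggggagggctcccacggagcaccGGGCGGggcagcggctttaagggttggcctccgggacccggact
The Igfbp7 sequence held 4 GC boxes, the most of any member sequence, and neither of the other shown sequences held one. Igfbp3, Igfbp4 and the downstream start site of Igfbp2 also had none, although their regions overlapped. The GC box therefore did not divide the members by whether their regions overlapped. A GC box was present in 32.7% of 32851 mouse promoter sequences of this length. Igfbp6 had 1 TATA box match, on the opposite strand and beginning at base -148, against 12.4% of all promoters with any match. Igfbp4, whose regions overlapped, also had 1 match, on its own strand and beginning at base -28. The TATA box therefore did not divide the members in this way either. The Igfbp5 sequence had no match to either motif. Bases G and C made up 58.8% of the Igfbp5, 49.6% of the Igfbp6 and 74.0% of the Igfbp7 sequence, against a median of 52.4% over all promoters. The RefSeq start site of Igfbp6 lies upstream of the GENCODE gene start given below. These matches describe letters and not binding.

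Each deposited value is in TPM, a transcript's share of its library's total after division by gene length, times 1000000. Levels of different genes can therefore be set side by side, but the sequencing depth is unknown and no counting interval can be given. Each library listed 15402 to 17003 genes above 0, and mitochondrially encoded genes took 23.5% to 35.3% of its TPM. The noncoding gene AY036118 was at 1.38 TPM in lateral replicate 5 and at 1.42 TPM in medial replicate 2, against at least 82500 TPM in the other libraries. Markers of spiny projection neurons, the main striatal neurons, summed to 3577 to 6082 TPM in lateral and 3491 to 5675 TPM in medial libraries, and none of the 12 was listed at 0 in any library. A fold change here is the lateral mean of log2(TPM + 1) less the medial mean, and for low genes it understates the change. Fold changes come from limma over the 15596 genes with at least 1 TPM in at least 5 libraries. The median over all these genes was -0.21, and each fold change is to be read against that shift. This median was -0.02 under median-ratio scaling and -0.15 after rescaling without mitochondrial genes. In captured tissue, fewer cells of a type and less RNA per cell cannot be told apart.

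Igf1r (chromosome 7, 67952827 to 68233668, plus strand, GRCm38, GENCODE M21) was the most evenly expressed member in the medial shell. Lateral replicates 1 to 5 were at 4.93, 8.69, 4.45, 4.54 and 7.17 TPM, and medial replicates 1 to 5 at 8.09, 8.93, 9.23, 9.71 and 9.20 TPM. The regions overlapped only through lateral replicate 2, which lay above medial replicate 1. Means were 5.96 ± 1.89 TPM (SD, n = 5) in lateral and 9.03 ± 0.60 TPM (SD, n = 5) in medial libraries, a log2 fold change of -0.57 (95% interval -1.13 to 0.0016). The SD was 6.64% of the mean in medial and 31.7% in lateral libraries. Among 13173 tested genes with a mean of 2 to 60 TPM, the median of this ratio was 38.7% in medial and 40.5% in lateral libraries.

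Insr (chromosome 8, 3122061 to 3279617, minus strand) was lowest in lateral replicates 1 and 5. In lateral replicates 1 to 5 it stood at 1.61, 6.82, 6.05, 5.42 and 2.51 TPM, and medial replicates at 4.85, 3.38, 6.68, 4.06 and 4.44 TPM. The medial values lay inside the lateral range (4.48 ± 2.29 against 4.68 ± 1.24 TPM, SD, n = 5 each), with a log2 fold change of -0.15 and an interval of -0.95 to 0.66. The ratio of Igf1r to Insr TPM was above 1 in 3 of 5 lateral libraries, with a range of 0.736 to 3.06. It was above 1 in 5 of 5 medial libraries, with a range of 1.38 to 2.64, so the ratios of the regions overlapped.

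Igf2r (chromosome 17, 12682406 to 12769664, minus strand) had nearly equal means in the regions. The lateral libraries gave, in replicate order, 7.02, 6.85, 5.50, 6.07 and 4.93 TPM, and medial replicates gave 6.03, 4.54, 6.25, 7.90 and 4.60 TPM. The log2 fold change was 0.06 (95% interval -0.52 to 0.64), and the lateral values lay within the medial range. Igf2r is an imprinted gene whose locus carries the antisense RNA gene Airn. Airn stood at 0 in each of the 5 lateral libraries and in medial replicates 2 and 4, and its medial mean was 1.69 TPM. Whether counting used strand is not given in the sources used, so reads of overlapping antisense genes cannot be told apart. This touches Igf2r, Igfbp7, which overlaps Polr2b, and Insr, which overlaps Gm16180 (at 0 in both regions) and Vmn2r-ps88 (lateral mean 0.966 TPM, medial mean 0.256 TPM). The 3 receptor transcripts together summed to 13.6 to 22.4 TPM in lateral and 16.9 to 22.2 TPM in medial libraries.

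**Figure D1:**
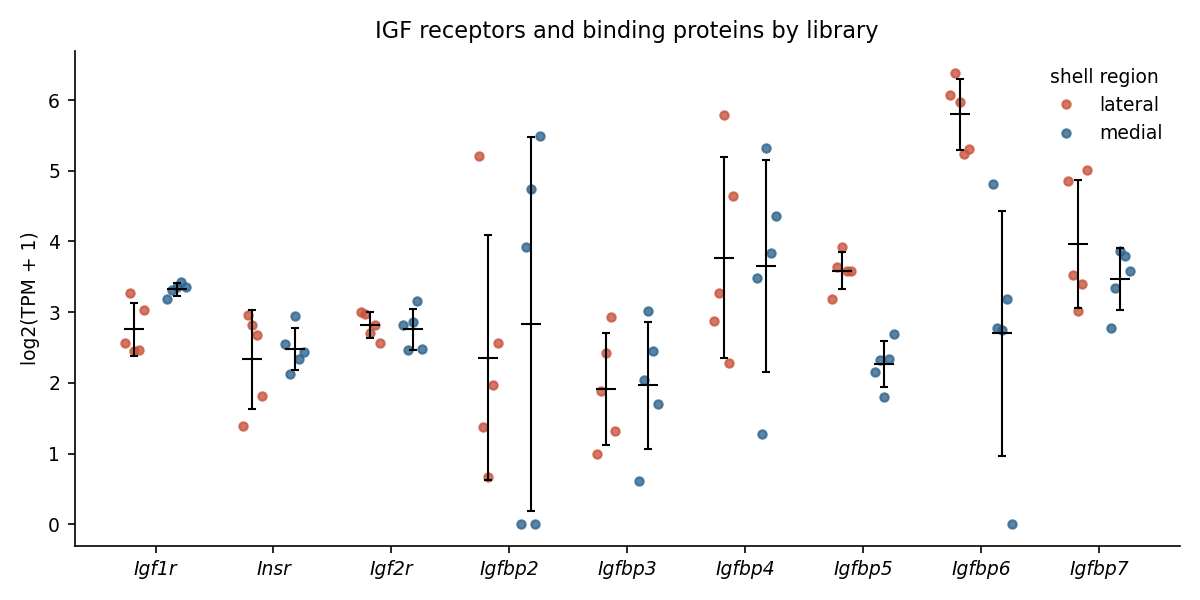
Level of each member as log2(TPM + 1) in each library (points, lateral and medial shell, n = 5 each), with the mean and SD on that scale (bars). The points of the regions are separate for Igfbp5 and Igfbp6 and overlap for the other 7 genes.

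Igfbp6 (chromosome 15, 102144362 to 102149511, plus strand) had the highest level of the 9 genes in 5 of 5 lateral libraries and in 1 of 5 medial libraries. Lateral replicates 1 to 5 were at 66.3, 82.1, 62.0, 36.8 and 38.7 TPM. Medial replicates 1 to 5 were at 27.1, 5.88, 5.70, 8.13 and 0 TPM. Every lateral library lay above every medial one, and medial replicate 1 came closest. The means of 57.2 ± 19.3 TPM (SD, n = 5) and 9.35 ± 10.3 TPM (SD, n = 5) differ 6.12-fold. The log2 fold change of 3.09 had a standard error of 0.64 and a 95% interval of 1.70 to 4.48. Over the 22 alternative settings it ran from 2.32, with a pseudocount of 5, to 3.85, with a pseudocount of 0.1.

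Igfbp5 (chromosome 1, 72857932 to 72874884, minus strand) is a strongly conserved binding protein that also attaches to extracellular matrix. Lateral replicates 1 to 5 were at 8.12, 11.5, 14.2, 11.0 and 11.0 TPM, and medial replicates 1 to 5 at 3.44, 4.01, 2.48, 4.08 and 5.46 TPM. The lowest lateral library was above the highest medial one, and medial replicate 5 was the nearest to the lateral range. The means of 11.2 ± 2.15 and 3.89 ± 1.09 TPM (SD, n = 5 each) differ 2.87-fold, with a log2 fold change of 1.32 (standard error 0.28, 95% interval 0.73 to 1.92). Igfbp2 lies tail to tail with Igfbp5 on chromosome 1, with 5457 bases between the annotated gene ends, and its values did not separate the regions.

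In the fit over all genes, Igfbp5 and Igfbp6 passed an adjusted p of 0.05, both higher in lateral, as did 0.385% of all genes tested in that direction and 1.48% in either. Every lateral value lay above every medial value for 0.859% of all genes. The members were chosen with this contrast known, so nothing follows from their share. The median log2 fold change of the 9 members was 0.06 and 5 were positive, against -0.21 and 4884 of all 15596 genes. Igfbp5 stayed past the threshold in 12 and Igfbp6 in 10 of 22 alternative settings. With single libraries left out, Igfbp5 passed in 3 of 10 fits, those without lateral replicate 1 or medial replicates 1 or 5, and Igfbp6 in 2, those without medial replicates 1 or 5. Without both libraries that had little AY036118, neither passed, and the log2 fold changes were 1.34 for Igfbp5 and 3.23 for Igfbp6.

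Igfbp2 (chromosome 1, 72824503 to 72852474, plus strand), known in brain from glia, choroid plexus and leptomeninges, varied most among members relative to its mean in lateral libraries. In replicate order it was at 35.8, 1.61, 0.591, 2.94 and 4.92 TPM in lateral libraries and at 0, 14.1, 25.7, 0 and 43.8 TPM in medial libraries. Lateral replicate 1 and medial replicates 3 and 5 were the highest libraries, and the regions overlapped over most of their range. The log2 fold change was -0.47 with a 95% interval of -2.88 to 1.94. These 3 libraries had the highest sums of the 6 measured leptomeningeal markers, at 31.5, 46.3 and 23.5 TPM, against 4.73 to 9.50 TPM in the other libraries. Medial replicate 2, the next highest in Igfbp2 at 14.1 TPM, had a sum of 5.03 TPM. The defining marker Dcn was listed at 0 in 4 lateral and 2 medial libraries, and none of the 3 tested leptomeningeal genes passed (limma). Sums of the 10 astrocyte markers were also highest in lateral replicate 1 (806 TPM), medial replicate 5 (800 TPM) and medial replicate 3 (712 TPM). Medial replicate 2 followed at 648 TPM. Medial replicates 1 and 4, with Igfbp2 at 0, had 635 and 613 TPM, and lateral replicates 2 to 5 had 545 to 592 TPM. The 3 measured choroid plexus markers summed to 2.44 to 13.2 TPM in lateral and 2.52 to 11.8 TPM in medial libraries. The part of any of these cell types in the Igfbp2 values was not tested. Igf2, a ligand gene known from leptomeninges in adult brain, reached 16.6 TPM in medial replicate 3 and at most 3.81 TPM in any other library. It was at 0.272 TPM in lateral replicate 1 and at 0 in medial replicate 5, where Igfbp2 was also high.

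**Figure D2:**
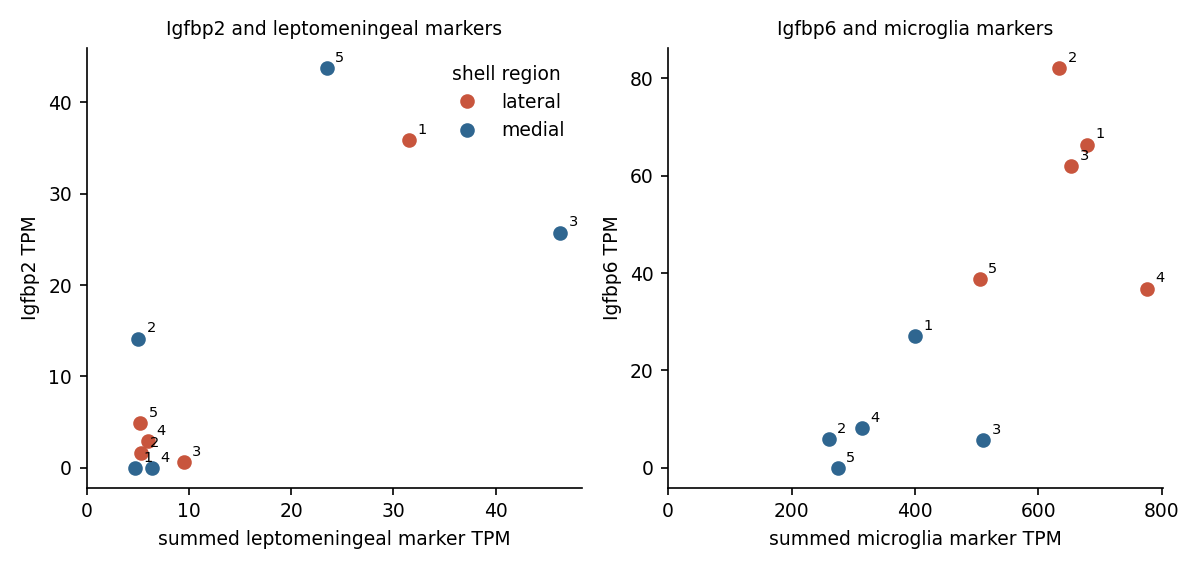
TPM of Igfbp2 against the summed TPM of leptomeningeal markers (left) and of Igfbp6 against that of microglia markers (right), 1 point per library labelled with its replicate number. The 3 libraries with Igfbp2 above 25 TPM had the 3 highest leptomeningeal sums, and also the 3 highest astrocyte sums, which are not drawn. Microglia sums were 505 to 777 TPM in lateral and 261 to 511 TPM in medial points. Lateral replicate 4 had the highest microglia sum and the lowest lateral Igfbp6 level.

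Igfbp4 (chromosome 11, 99041244 to 99054392, plus strand), whose protein is released from IGFs by cleavage with the protease Pappa, ranged widely in both regions. The lateral values in replicate order were 6.35, 8.69, 54.1, 3.84 and 24.1 TPM, and the medial values 10.2, 1.43, 38.9, 13.3 and 19.5 TPM. Replicate 3 was the highest library of each region, and the ranges overlapped almost entirely (log2 fold change 0.12, 95% interval -1.47 to 1.70). Igfbp3 (chromosome 11, 7206086 to 7213923, minus strand), the main IGF carrier of blood plasma, was on average the lowest of the 6 binding protein members. It ran from 0.987 to 6.63 TPM with a median of 2.71 in lateral and from 0.533 to 7.08 TPM with a median of 3.13 in medial libraries, and the log2 fold change was -0.06 (95% interval -1.16 to 1.04).

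Igfbp7 (chromosome 5, 77349240 to 77408041, minus strand), which marks endothelial cells in brain, was high in 2 lateral libraries. Its levels in lateral replicates 1 to 5 were 27.8, 10.6, 7.06, 9.59 and 31.4 TPM, and those in medial replicates 5.83, 9.16, 13.6, 12.8 and 11.0 TPM. Only lateral replicates 1 and 5 lay above the medial range, and the log2 fold change was 0.49 (95% interval -0.37 to 1.35). The 7 measured endothelial markers summed to 210 to 455 TPM in lateral and 235 to 424 TPM in medial libraries, none was at 0, and none passed (limma, 0 also at an unadjusted p under 0.05). The summed TPM of 7 mural markers was 824 in lateral replicate 1 and at most 208 in every other library. In lateral replicate 5, the highest in Igfbp7, the mural sum was 97.9 TPM. Lateral replicate 2 had the highest endothelial sum, 455 TPM, with Igfbp7 at 10.6 TPM. The part of these cells in the Igfbp7 values was not tested.

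The binding protein genes together summed to 145, 117, 142, 70.8 and 112 TPM in lateral replicates 1 to 5 and to 47.1, 37.8, 93.5, 42.8 and 82.0 TPM in medial replicates 1 to 5. Medial replicates 3 and 5 lay above the lowest lateral library, lateral replicate 4. Igfbp6 took 34.7% to 70.1% of that sum in lateral libraries and 0% to 57.5% in medial ones. The share of Igfbp5 was 5.58% to 15.5% in lateral and 2.65% to 10.6% in medial libraries, so its shares overlapped although its levels did not. Medial libraries had no common leading gene: Igfbp6 led in replicate 1, Igfbp2 in replicates 2 and 5 and Igfbp4 in replicates 3 and 4.

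**Figure D3:**
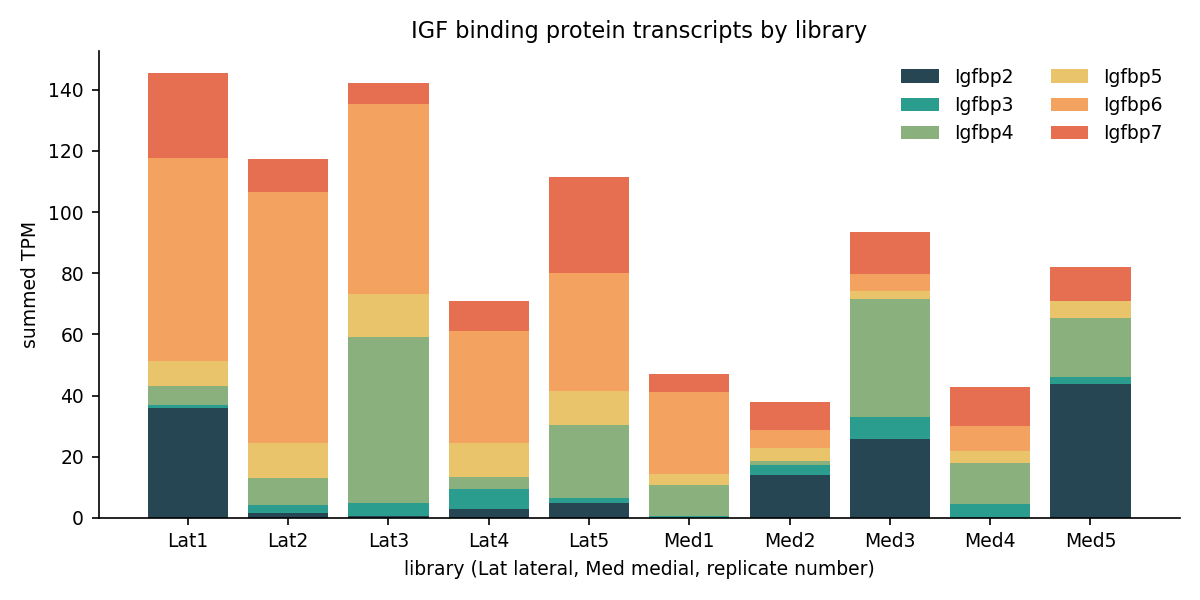
Summed TPM of the 6 binding protein genes in each library, stacked by gene. Igfbp6 is the largest part of every lateral bar, and medial bars differ in their largest part.

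Among markers of other cell types, 3 microglia genes passed the test, all higher in lateral libraries. All 12 microglia markers had positive log2 fold changes (median 0.91). C1qa, Ctss and Tmem119 were those that passed (limma), and 11 of 12 had an unadjusted p under 0.05. The 12 summed to 505 to 777 TPM in lateral and 261 to 511 TPM in medial libraries, with none at 0. Of 10 oligodendrocyte markers 9 had positive values and none passed, with sums of 310 to 1037 against 113 to 514 TPM. Of 7 tested GABAergic interneuron markers 6 had positive values and none passed, with sums of 486 to 5634 against 28.3 to 1701 TPM. At an unadjusted p under 0.05 there were 4 oligodendrocyte and 4 interneuron genes, all higher in lateral (limma). At that cutoff 2 astrocyte markers were higher in lateral and 2 in medial. Of spiny projection neuron markers, 2 were higher in lateral and 1 in medial, and 1 mural marker was higher in lateral. Of all genes tested, 3.03% were higher in lateral and 12.3% in medial at that cutoff (limma). The interneuron sum was led by Npy and Sst, and Pvalb was listed at 0 in 3 medial libraries. The 10 astrocyte markers summed to 545 to 806 TPM in lateral and 613 to 800 TPM in medial libraries. Lateral replicate 4 had the highest microglia sum, 777 TPM, and the lowest lateral level of Igfbp6, 36.8 TPM. Medial replicate 3 had the highest medial microglia sum, 511 TPM, with Igfbp6 at 5.70 TPM. Medial replicate 1, the highest medial library in Igfbp6 at 27.1 TPM, came next with a microglia sum of 401 TPM. The part of the cell types listed here in the values of Igfbp5 and Igfbp6 was not tested.

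The other genes of the pathway were read from a list of 80, of which 65 were in the table and 57 were tested. The adaptor gene Irs2 and the transcription factor gene Foxo1 were higher in the medial shell, and no listed gene passed in the lateral direction (limma, adjusted over all genes). In the medial direction 1.10% of all genes passed. At an unadjusted p under 0.05, 2 pathway genes (3.51%) were higher in lateral and 11 (19.3%) higher in medial libraries, against 3.03% and 12.3% of all genes tested (limma). Whether the list differs from all genes was not tested. The median log2 fold change of the 57 was -0.17, close to that of all genes.

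Irs2 (chromosome 8, 10984681 to 11008458, minus strand) encodes the insulin receptor substrate that couples Igf1r and Insr to phosphoinositide 3-kinase. Lateral replicates 1 to 5 were at 8.83, 6.03, 7.59, 5.98 and 8.67 TPM, and medial replicates 1 to 5 at 23.0, 19.2, 25.3, 28.3 and 29.5 TPM. Every medial library was above every lateral one, as was the case for 3.39% of all genes tested. Lateral and medial means were 7.42 ± 1.37 and 25.1 ± 4.17 TPM (SD, n = 5 each), and the log2 fold change was -1.63, with a standard error of 0.22 and an adjusted p of 0.00342 (limma). Irs2 passed in 22 of 22 alternative settings, with log2 fold changes of -1.77 to -1.27 and adjusted p of 0.00242 to 0.0307 (limma). The adaptor gene Irs1 was at most 0.849 TPM in any library and was not tested. Irs2 overlaps the opposite-strand transcript 9530052E02Rik, not analysed here.

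Foxo1 (chromosome 3, 52268336 to 52353221, plus strand) encodes a FoxO factor that Akt keeps out of the nucleus when insulin or IGF receptors are active. Levels in lateral replicates 1 to 5 were 14.9, 21.5, 12.4, 16.8 and 28.2 TPM, and in medial replicates 1 to 5 44.1, 37.9, 45.3, 36.0 and 42.5 TPM. Every medial value lay above every lateral one, and lateral replicate 5 came closest to the medial range. The means of 18.7 ± 6.24 and 41.2 ± 4.05 TPM (SD, n = 5 each) differ by -1.14 on the log2 scale (standard error 0.22, adjusted p = 0.0248 by limma). In limma's adjusted p, the call was lost without lateral replicate 1 or 4 or any of medial replicates 2 to 5 (0.0528 to 0.0631), after median-ratio scaling (0.0614) and quantile normalization (0.0517), and without a mean-variance trend (0.0547). Over all 22 alternatives its adjusted p ran from 0.0141 to 0.0782 (limma). Foxo1 overlaps Gm38034 on its strand (means of 1.95 and 4.88 TPM in lateral and medial libraries) and an antisense gene. Of the other FoxO and GSK3 genes, Foxo6 was at 4.02 against 7.79 TPM in lateral and medial libraries (limma adjusted p = 0.430) and Gsk3b at 88.2 against 85.2 TPM (limma adjusted p = 0.915).

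**Figure D4:**
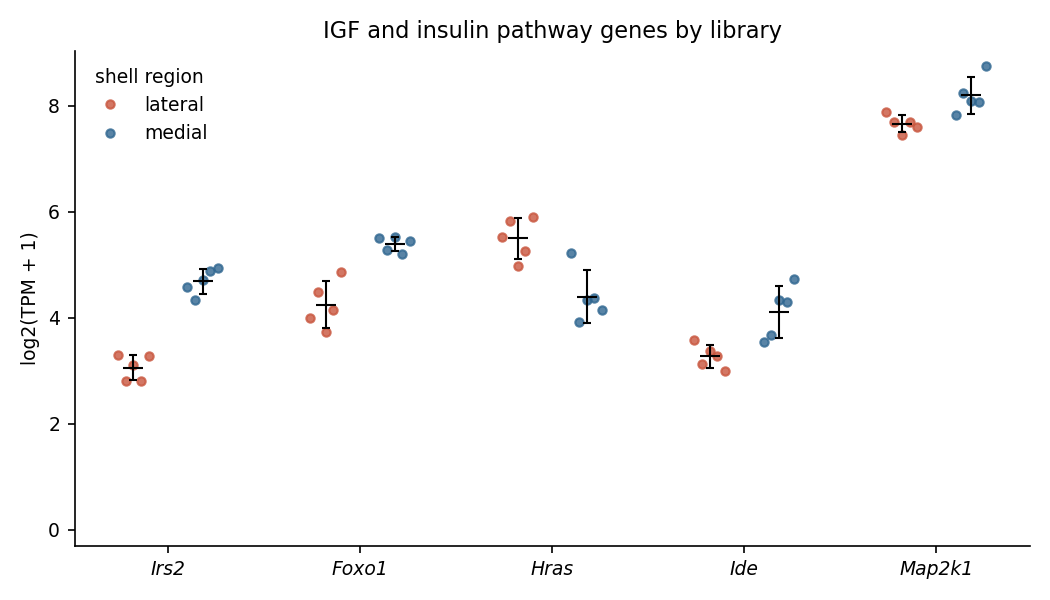
Level of 5 pathway genes as log2(TPM + 1) in each library (points, n = 5 per region), with mean and SD on that scale (bars). Medial points lie above all lateral points for Irs2 and Foxo1.

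The Ras and MAP kinase branch held members with opposite signs, none past the threshold. Hras, a small GTPase, had lateral values of 45.3, 56.0, 30.3, 37.2 and 58.6 TPM and medial values of 36.4, 14.1, 19.2, 19.7 and 16.8 TPM in replicates 1 to 5. Medial replicate 1 alone reached into the lateral range. Its log2 fold change of 1.10 had an adjusted p of 0.0615 (limma). Hras passed in 6 of 22 alternative settings and not in 16, with adjusted p of 0.018 to 0.271 over all 22 (limma). It passed without lateral replicate 3 (limma adjusted p = 0.0491) or medial replicate 1 (0.018), and with array weights (0.0490). The other settings it passed were rescaling without mitochondrial genes (limma adjusted p = 0.0472) and quantile (0.0494) or median-ratio (0.0450) scaling. Map2k1, the kinase MEK1, was the most abundant gene of this branch at 202 against 299 TPM (limma adjusted p = 0.161).

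In the group of ligands and modulators of ligand supply, Ide, a mainly cytosolic protease that degrades insulin, averaged 8.75 ± 1.53 TPM laterally and 17.2 ± 6.03 TPM medially (SD, n = 5 each), a log2 fold change of -0.85 with a limma adjusted p of 0.152. Htra1, a secreted protease, was at 57.9 ± 38.5 against 87.7 ± 14.0 TPM (SD, n = 5 each, limma adjusted p = 0.255). Without lateral replicate 1, a library at 125 TPM, Htra1 passed with a log2 fold change of -1.09 (limma adjusted p = 0.0275). It did not pass in 21 of 22 alternative settings, with adjusted p of up to 0.534 (limma). Among adaptors, Shc3, which is expressed in neurons, stood at 13.4 against 6.67 TPM (limma adjusted p = 0.274), and Grb2, the most abundant, at 54.6 against 52.3 TPM (0.871). In the branch of phosphoinositide 3-kinase and Akt none of 13 genes passed, and none had an unadjusted p under 0.05 (limma). The catalytic subunit gene Pik3ca was at 5.81 against 2.44 TPM, Akt2 at 21.6 against 29.5 TPM and Pdpk1, the kinase that activates Akt, at 27.0 against 33.7 TPM. None of 11 mTOR genes passed (limma), and Rps6kb1 had the smallest p there, being the single gene with an unadjusted p under 0.05 (8.78 against 14.1 TPM, limma adjusted p = 0.271). Rictor was at 6.47 against 9.29 TPM and Rheb, which activates mTOR, at 35.6 against 50.5 TPM. The RNA-binding protein gene Igf2bp3 was at 4.86 against 8.11 TPM (limma adjusted p = 0.351).

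**Figure D5:**
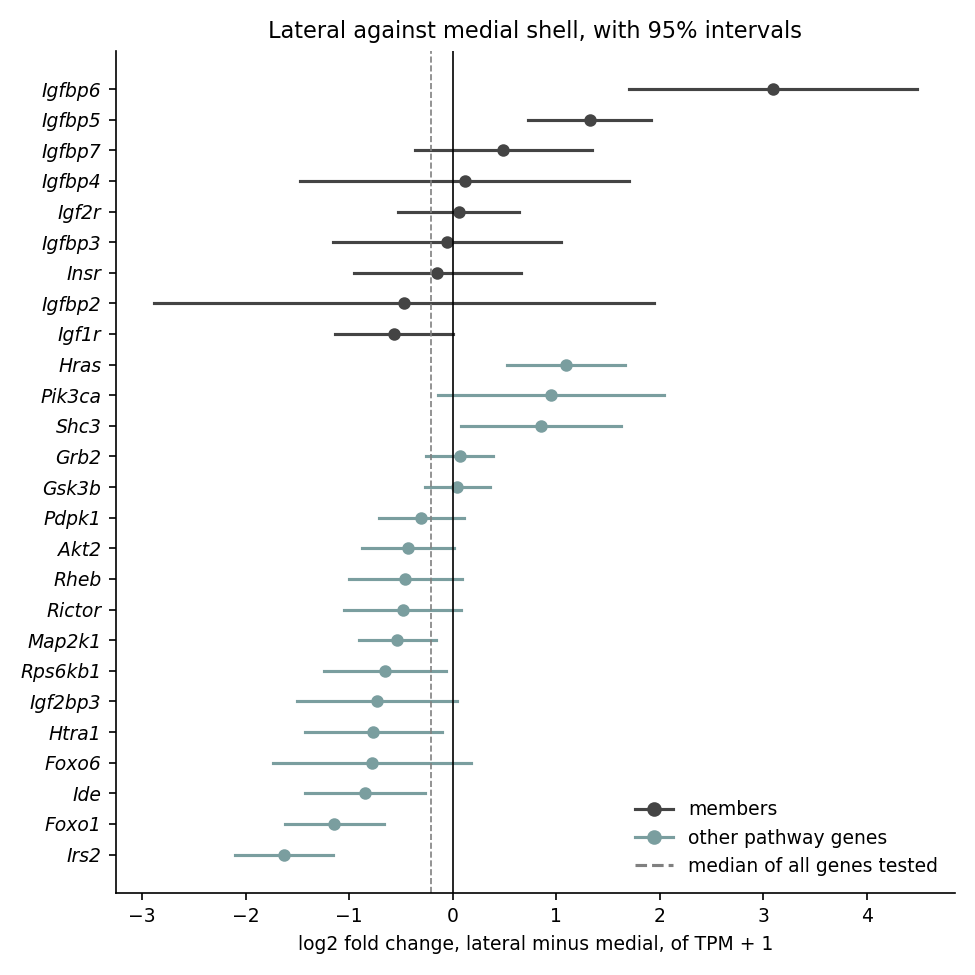
Log2 fold change (lateral less medial mean of log2(TPM + 1)) with its 95% interval for the 9 members and the other pathway genes reported, and the median of all genes tested (dashed line, -0.21). Irs2 and Foxo1 passed the test at the medial end, and the member intervals farthest to the right are those of Igfbp6 and Igfbp5.

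Genes whose values followed Igfbp5 and Igfbp6 inside the regions were listed as a description. After each region's mean was subtracted from log2(TPM + 1), the likeness over the 10 libraries was measured as a Pearson coefficient against the 10883 genes that averaged 5 TPM or more. The highest for Igfbp5 were Upb1 (0.96), Pank4 (0.95) and Gm42742 (0.95). Those for Igfbp6 were Ampd3 (0.93), Zfp652 (0.91) and Arhgef15 (0.90). They are the largest of many values over 10 libraries that share their total and carry no test.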

How the data were processed

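The deposited table holds TPM for 20483 genes by symbol, 1 column per sample, scaled by the authors to 1000000 per sample. Per the submitters' processing notes, fastp 0.20.0, HISAT2 2.1.0, StringTie 1.3.4, featureCounts 1.6.3 and GRCm38 (mm10) were used, without their roles. Annotation, strand setting and gene filter are not given in the sources used. TPM keeps no depth, so no counting error can be stated.

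Lateral and medial samples were compared with limma 3.58.1 in R 4.3.3 (empirical Bayes, variance trended on mean level). The input was log2(TPM + 1) of the 15596 genes with at least 1 TPM in at least 5 of 10 samples. The threshold was an adjusted p (Benjamini-Hochberg) of 0.05. The fit was also run on simulated data with independent noise in each gene. That run held no differences shared within a library, so it does not check the calls reported here. Coordinates came from GENCODE M21 and promoters from RefSeq, both on GRCm38. The members, gene lists and alternatives were chosen with earlier results of these data known. Named genes are the members, pathway genes past the threshold, the 2 smallest p and the highest mean in each pathway group, leading markers and the 3 genes most like Igfbp5 and Igfbp6. A pathway gene that this rule names is counted in its list but not reported here. Igf2, Irs1, Airn, AY036118, Dcn, Pvalb, Ctss, Tmem119, Gm16180, Vmn2r-ps88, Polr2b and Gm38034 fall outside that rule and were named after their values were seen. Alternatives changed the pseudocount, filter, scaling, variance model, weights, replicate block and samples included.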

Additional observations from a re-analysis of the deposited data

Results flagged for a closer look

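In 54 groups of 5 libraries, 1 member or pathway gene in 1 region each, 4 held a library that stood far from the others, where chance gives about 1 in 20 groups. Igfbp2 was at 35.8 TPM in lateral replicate 1, the library that also had the highest mural sum. That library also had the highest oligodendrocyte (1037 TPM), astrocyte (806 TPM) and cholinergic interneuron (204 TPM) sums. It had the lowest lateral sum of spiny projection neuron markers (3577 TPM) and the fewest genes above 0 (15402). Hras was at 36.4 TPM in medial replicate 1, above the other medial libraries. Htra1 was at 125 TPM in lateral replicate 1. Igf2bp3 was at 4.97 TPM in medial replicate 3, below the other medial libraries.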

How the results depend on the processing

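Of the main counts, 60 genes were higher in lateral and 171 in medial. The split differed by scaling and by the libraries included. As deposited, 74.0% of calls were on the medial side. That share was 48.2% under median-ratio scaling (88 and 82 genes), 53.8% under quantile normalization (86 and 100) and 64.2% without mitochondrial genes (73 and 131). With single libraries left out and the scaling unchanged, it ran from 61.0% (without medial replicate 5) to 84.6% (without lateral replicate 2). A pseudocount of 0.1 gave 107 in medial, and leaving out the mean-variance trend gave 34 and 111. Without both libraries with little AY036118, in a fit of fewer samples, 12 and 31 were called. With single libraries left out the counts ran from 23 to 69 in lateral and from 56 to 188 in medial, the lowest being without lateral replicate 2 and without medial replicate 2. The lateral count fell by over 1.5 times without any 1 library but lateral replicate 3 and medial replicate 1, and the medial count without lateral replicates 1, 4 or 5 or medial replicates 2 to 5. The 2 pathway genes higher in medial became 1, Irs2, under median-ratio scaling, quantile normalization, no trend and the replicate block, and ran from 1 to 2 with single libraries left out. The 0 higher in lateral became 1, Hras, under median-ratio scaling, quantile normalization, rescaling without mitochondrial genes and array weights, and ran from 0 to 1 with single libraries left out. The causes of these changes were not tested.

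The replicate block gave 19 genes in lateral and 45 in medial; Foxo1 lost its call (limma adjusted p = 0.0782), as did Igfbp5, and Irs2 did not (0.0307). Same-numbered libraries did not deviate together, with coefficients across genes from -0.0534 to 0.0417. Spread between single libraries can hide a shared source, so these values cannot decide whether the numbers pair libraries. The labels do not say whether they do. Igf1r, Igfbp5, Igfbp6 and Igfbp7 had the same sign in 22 of 22 alternatives. The sign turned in 3 of 21 for Insr and Igfbp2, 2 of 22 for Igf2r, 8 of 21 for Igfbp3 and 5 of 22 for Igfbp4. Depth is unknown, so low values such as those of Igfbp3 and Insr cannot be given a counting error.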
